A study of Mus musculus with 43 samples.

Results

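The cells described here are S-phase cells of irradiated mouse intestinal organoids, chosen by their own RNA. A cell was kept when it had at least 500 unique molecular identifiers (UMIs, each standing for a captured RNA molecule) and at most 20% of its UMIs from mitochondrial genes. It was placed in the S-phase gate when the UMIs of Mcm3, Mcm5, Uhrf1, Rrm2 and Ccne2 together reached 8 per 10000 UMIs and the sum of 5 mitotic genes (Ccnb1, Cdc20, Ube2c, Nusap1 and Hmmr) stayed below 8. The gate held 745 of the 12323 kept cells. Since measured values chose the cells, the gate genes are described only, and no DNA content was measured.

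The organoids were primary intestinal cultures from wild-type C57BL/6 mice, and every organoid group used here, controls included, received 4 Gy of ionising radiation on day 4. Single-cell RNA-seq of day 8 organoids (PIPseq, a droplet method) covered 6, 15 and 24 h with 1 ng/mL TGFB1, and 24 h with vehicle before collection, which the labels call 0 h. There was 1 library per time, so no time difference in single cells has a replicate check, and no test was run across cells. The intervals given in single cells are exact 95% intervals (Clopper-Pearson for shares, Poisson for counts) and cover counting error only. Bulk RNA-seq used organoids that got vehicle or TGFB1 at 2 ng/mL from day 6 and were collected 24 h later, on day 7; it supplied 3 libraries per group and the only tested comparison. TGFB1 is a secreted ligand that signals through SMAD proteins and slows division of many epithelial cells.

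Cells enter S phase once cyclin D and cyclin E kinases release E2F transcription factors from the retinoblastoma protein. E2F then drives genes for replication licensing (the MCM helicase and its loaders), the replication fork, nucleotide supply and chromatin assembly, and for cyclin E itself. In the intestinal epithelium these cells sit in the crypt, among stem cells and early progenitors, while differentiated enterocytes and secretory cells no longer replicate their DNA.

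The 5 genes of the gate each serve replication. Mcm3 and Mcm5 are subunits of the MCM helicase, Uhrf1 brings DNA methylation to newly made DNA, Rrm2 is the small subunit of ribonucleotide reductase, and Ccne2 is cyclin E2. Because these genes fell together in the bulk comparison described last, their promoters (RefSeq, GRCm38.p6, 250 bases before to 50 after the start site) were searched on both strands for the E2F consensus, spelled TTTCCCGC, TTTCGCGC, TTTGCCGC or TTTGGCGC. Of the 4 gate genes with an entry, 3 held a match and Rrm2 held none, against 704 of all 27025 genes (2.6%). Among 42 further replication genes, 13 of the 32 with an entry held one. Of these, nucleotide supply had 0 of 4, while each other replication list held some. Of the 5 mitotic gate genes 0 of 5 held one, too few genes to set against 2.6%. The stretches that hold matches are shown 5′ to 3′, with matches in capitals. The Mcm5 stretch is chr8:75109259-75109508 on the plus strand, with 2 overlapping matches on opposite strands, whose first bases lie at -153 and -149 from the start site. The Uhrf1 stretch is chr17:56304063-56304312 on the plus strand, from the second of its promoters, with a match at -185. The Mcm3 stretch is a run of 30 bases just after the start site, chr1:20820275-20820304 on the minus strand, with a match at 20; a second match, at 39, lies past its end.
Mcm5: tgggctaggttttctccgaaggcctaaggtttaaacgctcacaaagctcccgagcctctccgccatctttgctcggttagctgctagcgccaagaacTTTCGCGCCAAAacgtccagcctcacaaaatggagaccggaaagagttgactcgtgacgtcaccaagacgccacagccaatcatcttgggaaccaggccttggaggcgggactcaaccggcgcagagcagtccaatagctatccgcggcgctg
Uhrf1: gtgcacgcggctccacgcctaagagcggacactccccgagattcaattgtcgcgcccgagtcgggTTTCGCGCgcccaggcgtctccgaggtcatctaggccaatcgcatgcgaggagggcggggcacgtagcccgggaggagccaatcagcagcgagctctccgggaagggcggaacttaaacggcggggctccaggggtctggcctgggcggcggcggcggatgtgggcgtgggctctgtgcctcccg
Mcm3: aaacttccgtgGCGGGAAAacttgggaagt
A match is a run of letters, not a measured binding site, and a part of E2F in the bulk fall was not tested.

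S-phase cells made up a smaller share of the library at 15 and 24 h than at 0 and 6 h. They were 224 of 2932 cells at 0 h (7.64%, interval 6.70 to 8.66%) and 347 of 4283 at 6 h (8.10%, 7.30 to 8.96%). They were 73 of 2890 at 15 h (2.53%, 1.99 to 3.17%) and 101 of 2218 at 24 h (4.55%, 3.72 to 5.51%). The 15 h and 24 h intervals lay below those of 0 and 6 h, and 15 h was the lowest. Depth differed between the libraries: the S-phase cells had a median of 9154, 7529, 9346 and 16289 UMIs at 0, 6, 15 and 24 h. With every cell thinned to 5000 UMIs, which left out 532, 1203, 700 and 275 shallower cells, the shares were 9.58, 9.64, 3.65 and 5.35%. Among cells of at least 12000 UMIs alone, they were 9.15, 11.5, 3.74 and 7.29%, and there the 24 h interval (5.73 to 9.12%) overlapped that of 0 h (7.07 to 11.6%). Among cells of 6000 to 12000 UMIs the shares were 7.94, 9.46, 3.01 and 2.60%, so 24 h and not 15 h was lowest there. The low share at 15 h was thus seen at every depth, while that at 24 h was within counting error of 0 h among the deepest cells, and the order of 15 and 24 h moved with depth.

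**Figure D1:**
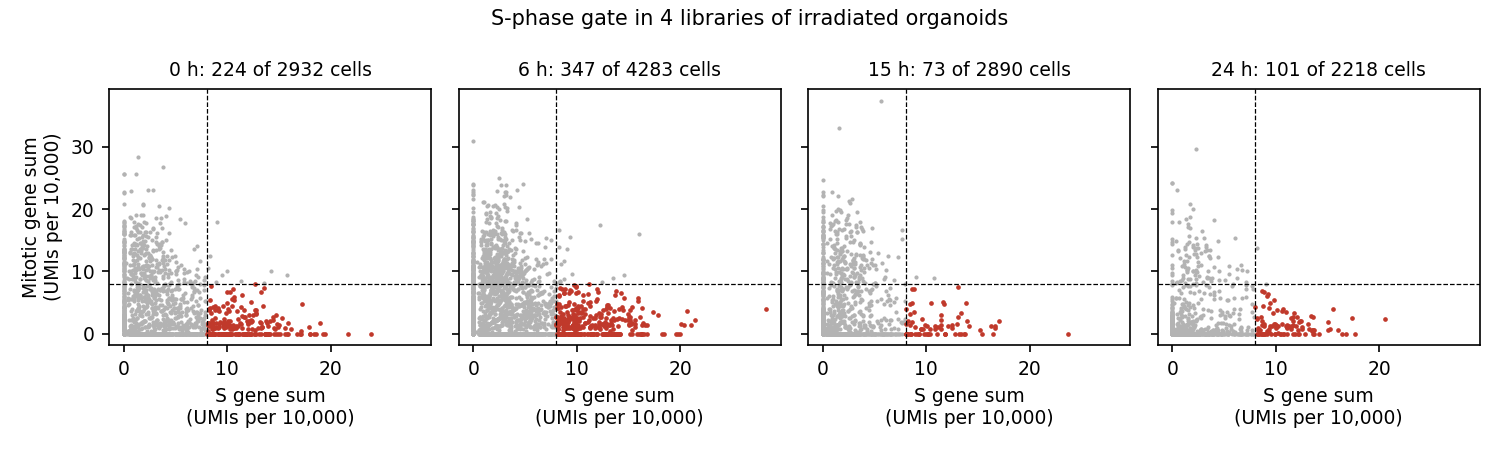
Each point is a kept cell, with the sum of the 5 S-phase gate genes on the x axis and of the 5 mitotic gate genes on the y axis, both in UMIs per 10,000. Dashed lines mark the limit of 8 on each axis, and red points are the S-phase cells, 224, 347, 73 and 101 from left to right.

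The gate sat in a continuous range rather than at a gap. Within 1 unit of the limit, 44, 77, 21 and 23 cells lay just inside (8 to 9 per 10000) and 60, 62, 16 and 21 just outside (7 to 8). The median sum among members was 10.8, 10.4, 10.4 and 10.7 at 0, 6, 15 and 24 h, close to each other. At 0 h, 65.3% of the cells in neither gate had no UMI of the 5 genes, and at 15 h 76.5%. Cells richest in enterocyte RNA were not found in the gate. Among the cells above the 90th percentile of enterocyte RNA in each library, 0 of 294, 0 of 429, 0 of 289 and 0 of 222 cells were in it, with upper limits of 1.25, 0.856, 1.27 and 1.65%. Cells with at least 20 enteroendocrine UMIs per 10000 gave 0 of 6, 0 of 8, 0 of 11 and 0 of 23. Single S-phase cells still held much differentiated RNA: the highest Fabp1 level was 234 per 10000 UMIs at 0 h, above the third quartile of 183 in cells of neither gate. Scrublet called 3, 11, 1 and 1 of the S-phase cells doublets; they were kept. The libraries shared 1 kept barcode, of 15 and 24 h, and it was not an S-phase cell.

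Mitotic cells followed another order over time. The cells past the mitotic limit alone were 10.9, 12.9, 9.34 and 4.96% of the library at 0, 6, 15 and 24 h. The mitotic share was thus lowest at 24 h, while the S-phase share over all cells was lowest at 15 h. For each mitotic cell there were 0.698, 0.630, 0.270 and 0.918 S-phase cells at the 4 times. After thinning to 5000 UMIs the mitotic shares were 13.3, 16.3, 10.8 and 5.30%, in the same order. Cells past both limits numbered 10, 16, 2 and 2. For comparison with tissue, sorted Ki67-RFP positive crypt cells from mice of the Mki67tm1.1Cle/J strain held 7.91% S-phase cells without irradiation, and 19.1 and 16.9% in the libraries taken 56 h after 12 Gy to the whole body. There, unlike in the organoids, the sort itself had selected cycling cells.

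**Figure D2:**
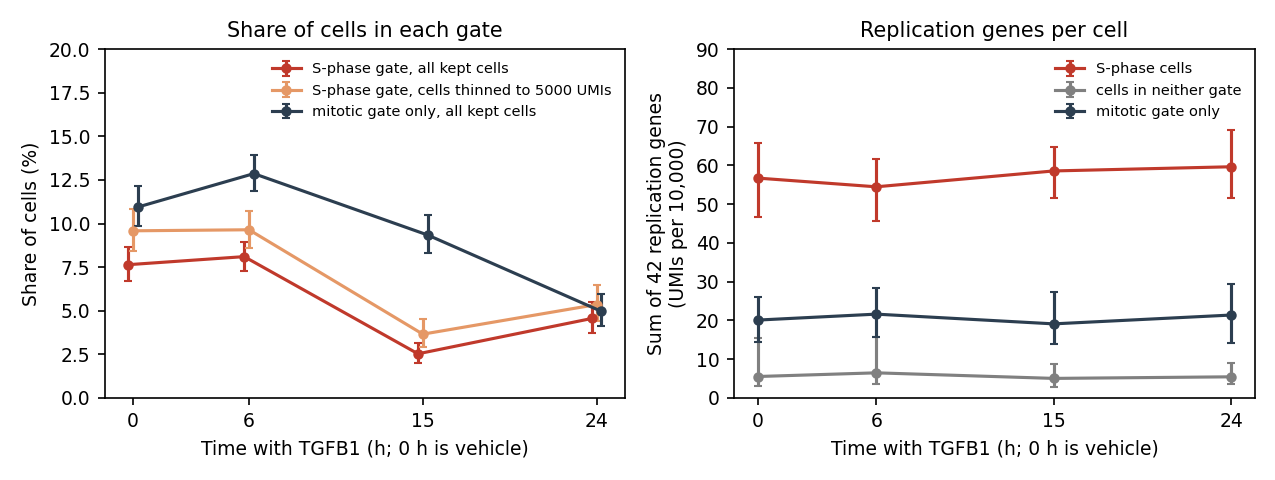
Left, the share of cells in the S-phase gate (all kept cells and cells thinned to 5000 UMIs) and in the mitotic gate alone, by hours with TGFB1, with exact 95% counting intervals; the S-phase share is lowest at 15 h (2.53%) and the mitotic share at 24 h (4.96%). Right, the median and interquartile range over cells of the summed 42 replication genes outside the gate; the S-phase median stays between 54.5 and 59.7 UMIs per 10,000.

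Replication genes outside the gate were also high in these cells. Their 42 members sum to a median of 56.7, 54.5, 58.6 and 59.7 UMIs per 10000 in S-phase cells at 0, 6, 15 and 24 h. In cells of neither gate the median was 5.51, 6.46, 5.02 and 5.43, and in mitotic cells 20.1, 21.6, 19.1 and 21.4. The replication list was thus highest in the S-phase cells at each time. Of them, 72.3, 74.6, 94.5 and 94.1% lay above the 95th percentile of cells in neither gate in their own library. These values are a description, since the same limit on 5 replication genes was applied at each time and replication genes vary together: both the high level and its likeness over time are tied to how the cells were chosen.

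Within the S-phase cells, no replication gene of sufficient level differed 2-fold from 0 h. UMIs were summed over the cells of each time and scaled to a common total as CPM, and a time was compared with 0 h as a log2 ratio with 5 CPM added to each side. Over the 3334 genes with a mean of at least 50 CPM over the 4 times in S-phase cells, the median log2 ratio was 0.014, -0.025 and 0.0015 at 6, 15 and 24 h. At least 2-fold higher were 1.02, 2.85 and 3.93% of these genes, and at least 2-fold lower 0.21, 1.23 and 1.77%. Of the 42 replication genes 37 reached that level, and 0 of 37 passed 2-fold in either direction at any time. Their median log2 ratio was -0.07, 0.03 and 0.05. The fixed gate holds the level of such genes, so their near-level ratios are a description and no test of stability. In cells of neither gate, which the same limits bound from above, the same 37 genes had medians of -0.06, -0.55 and -0.46. Over all 3334 genes the medians in these cells were 0.028, -0.046 and -0.044. Below 0 were 37 of 37 at 15 h and again at 24 h, while the share of all genes below 0 was not counted.

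The licensing and helicase genes held nearly level. Mcm6, another helicase subunit, was at 272, 251, 287 and 312 CPM in S-phase cells at 0, 6, 15 and 24 h. Cdt1, which loads the helicase, was at 165, 140, 159 and 168 CPM, and its inhibitor Gmnn (geminin) at 160, 167, 164 and 160. Cdc6, the other loader, had the largest ratio of the 37 genes, with 70.2, 86.8, 112 and 120 CPM, a log2 ratio of 0.74 at 24 h. It was the licensing gene that differed most, and its 0 h interval (59.8 to 81.8 CPM) did not reach its 24 h interval (105 to 137 CPM). Since Cdc6 was picked as the largest of 37 ratios, that gap is a description only.

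At the replication fork, Pcna, the sliding clamp of the DNA polymerases, was at 679, 658, 711 and 811 CPM in S-phase cells. Lig1, the ligase that joins Okazaki fragments, was at 159, 154, 207 and 210 CPM, and Pola1, the catalytic subunit of the priming polymerase, at 67.6, 74.9, 76.6 and 82.3. These 3 genes were somewhat higher at 24 h than at 0 h. In the cells of neither gate Pola1 was at 19.0, 17.7, 8.98 and 12.1 CPM, lower at the later times.

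Genes of nucleotide supply divided. Tk1 (thymidine kinase) was at 99.9, 98.7, 71.3 and 75.8 CPM and Dut, which removes dUTP, at 289, 258, 232 and 220. Tyms (thymidylate synthase) was at 170, 146, 153 and 203 CPM. Tk1 and Dut were lower and Tyms higher at 24 h than at 0 h, each by less than 2-fold. Rrm1, the large subunit of ribonucleotide reductase, stayed between 219 and 239 CPM.

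Of the chromatin genes, the CAF-1 subunit Chaf1b was at 48.2, 65.0, 75.3 and 81.7 CPM and Chaf1a at 65.0, 66.4, 76.6 and 90.4. CAF-1 places histones on new DNA, and both of these subunits were highest at 24 h. Dnmt1, the maintenance DNA methyltransferase, was at 131, 118, 153 and 142 CPM, in no order over time. Among checkpoint and repair genes, Clspn (claspin, an adaptor of the ATR pathway) was at 50.4, 54.8, 76.6 and 68.2 CPM. Brca1 and Chek1 stayed under the level limit, at 32.3 to 46.2 CPM.

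Genes of the next cell-cycle stage, whose level the mitotic limit bounds in both kinds of cell, were near level in S-phase cells. Of 12 genes of G2 and chromosome condensation, 8 reached 50 CPM, and their median log2 ratio at 24 h was -0.0041 in S-phase cells and -1.07 in cells of neither gate. At least 2-fold lower at 24 h were 0 of these 8 in S-phase cells and 5 of 8 in cells of neither gate, where 1.05% of all genes were. Mki67, the proliferation antigen, was at 171, 202, 201 and 174 CPM in S-phase cells and at 72.6, 88.8, 38.7 and 30.4 CPM in cells of neither gate. Hmgb2, a chromatin protein of cycling cells, was at 879, 884, 835 and 767 CPM against 423, 416, 222 and 162. The 2 kinds of cell thus stood furthest apart at the later times.

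Over the whole of each library, the 42 replication genes gave 1864, 1889, 1177 and 1383 CPM at 0, 6, 15 and 24 h. The S-phase cells supplied 25.7, 25.7, 14.1 and 26.4% of those UMIs. Their own level was 5648, 5362, 5747 and 6047 CPM. The library-wide level, which no gate sets, was lower at 15 and 24 h than at 0 and 6 h.

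**Figure D3:**
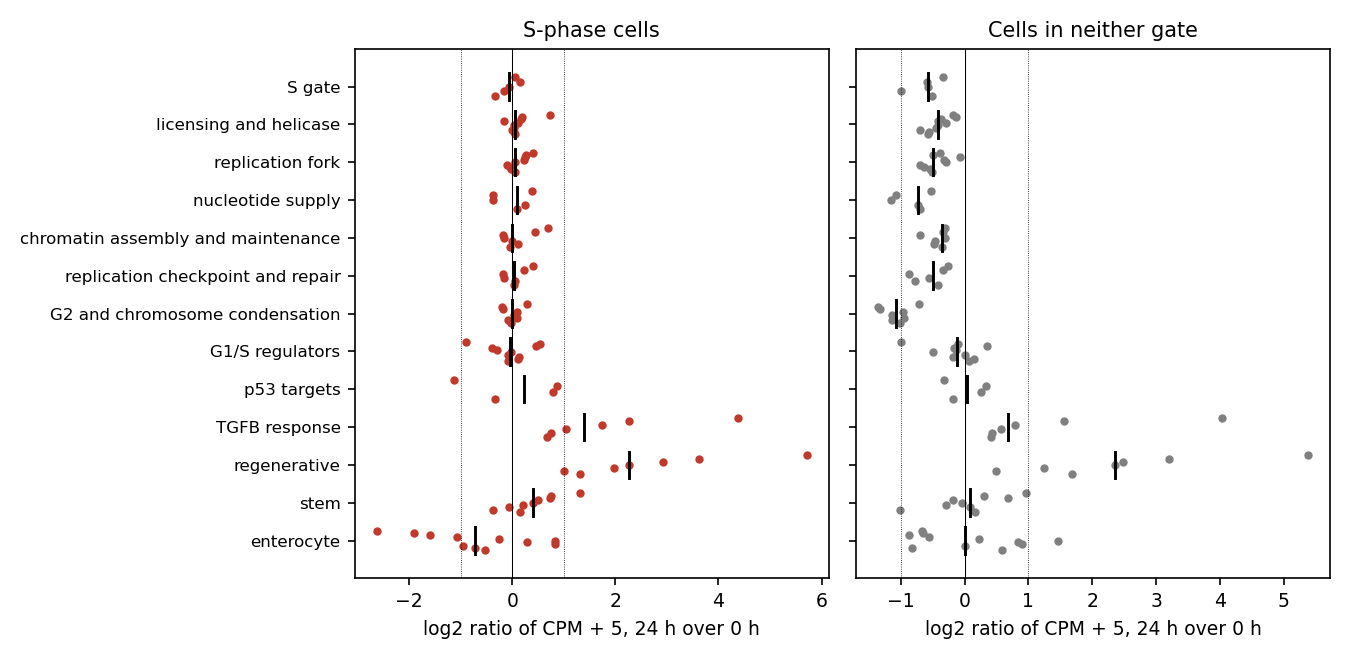
Each point is a gene with a mean of at least 50 CPM in S-phase cells, placed by its log2 ratio of CPM + 5 at 24 h over 0 h, in S-phase cells (left) and in cells of neither gate (right), grouped by gene list; black bars are list medians and dotted lines mark 2-fold. Replication lists lie around 0 on the left and below 0 on the right, while TGFB response and regenerative genes lie above 0 on both sides.

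Among regulators of the G1/S step, Ccnd2 (cyclin D2) had the lowest ratio at each time. It was at 643, 375, 308 and 341 CPM in S-phase cells at 0, 6, 15 and 24 h, with a log2 ratio of -1.05 at 15 h and -0.90 at 24 h. It was also lower in cells of neither gate, at 307, 205, 152 and 153 CPM. Of the 13 genes on this list 10 reached the level, 0 were 2-fold higher at any time, and 1 (Ccnd2, at 15 h) was 2-fold lower. Ccnd1 (cyclin D1) was at 201, 170, 209 and 276 CPM, E2f1 at 51.6, 50.7, 56.8 and 77.4, and Ccne1 (cyclin E1) between 52.8 and 54.5. Myc, a growth regulator, was at 103, 79.7, 108 and 82.8 CPM. Without the top cell of each time, Cdk6 was at 158, 94.9, 158 and 169 CPM, lower at 6 h alone.

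CDK inhibitors, which hold cells before S phase, differed by member. Of 7 on the list, 2 (Cdkn1a and Cdkn1b) reached the level. Cdkn1a (p21) was at 50.8, 82.7, 88.5 and 87.7 CPM in S-phase cells, against 127, 146, 140 and 158 CPM in cells of neither gate. Cdkn2b (p15), a known TGFB target, was at 2.72 to 5.28 CPM in S-phase cells and at 51.5, 53.4, 71.4 and 69.1 CPM in cells of neither gate. Cdkn1b (p27) went the other way, at 53.8, 55.2, 43.6 and 53.03 CPM against 40.7, 36.6, 36.2 and 36.8, as did Cdkn2c (p18), at 21.9, 20.8, 14.5 and 19.5 CPM against 6.70, 6.04, 2.96 and 2.62. Cdkn1a and Cdkn2b were thus lower, and Cdkn1b and Cdkn2c higher, in S-phase cells than in cells of neither gate at all 4 times. Among p53 targets, 4 of 12 reached the level. Ccng1 (cyclin G1) was at 77.5, 94.7, 56.8 and 32.5 CPM, while Btg2, an antiproliferative gene, was at 149, 182, 209 and 261 and Pmaip1 (Noxa) at 115, 124, 173 and 216. The list held members on either side of 0 at 24 h.

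Most TGFB response genes of sufficient level were higher in S-phase cells at 6 h, the first time sampled with TGFB1, than at 0 h. With 1 library per time, TGFB1 and a library difference cannot be told apart. Of 15 TGFB response genes 6 reached the level, and 2, 3 and 4 of them were at least 2-fold higher at 6, 15 and 24 h, with medians of 0.81, 1.04 and 1.39 on the log2 scale and 0 of 6 lower by 2-fold. Pmepa1, a feedback inhibitor of SMAD signalling, was at 21.9, 243, 435 and 555 CPM in S-phase cells. Skil (SnoN), another SMAD inhibitor, was at 18.9, 75.2, 97.8 and 109 CPM, and Smad7 at 7.32, 19.1, 40.9 and 47.1. Pmepa1, Skil and 2 further members, Bhlhe40 and Ski, reached the mean of 50 CPM only through their levels after 0 h. Without the top cell, Bhlhe40 was at 43.1 and Ski at 36.5 CPM at 0 h. The counts for this list are thus a description. Pmepa1 was at 14.0, 132, 210 and 304 CPM in cells of neither gate, and Skil at 30.1, 84.3, 94.5 and 98.4 CPM. Both kinds of cell had the same order over time, and the 6 h level was already above that of 0 h. Rhob, a small GTPase, and Blvrb, biliverdin reductase B, were not on the list. They were at 54.2, 311, 501 and 613 CPM and at 19.8, 103, 188 and 158 CPM in S-phase cells. Their log2 ratios at 24 h were 3.38 and 2.72, against 1.81 and 1.55 in cells of neither gate. Blvrb, too, reached the mean of 50 CPM only through its levels after 0 h. The receptor gene Tgfbr2 was at 52.1, 46.6, 44.9 and 61.1 CPM, and Smad4 at 74.0, 94.7, 84.5 and 74.7. Id1, a target of the related BMP ligands, was at 103, 104, 143 and 137 CPM.

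Regenerative genes came later and went further. These genes mark the damaged epithelium, and Clu (clusterin) defines the revival stem cells of the irradiated intestine. Of 21 genes on the list 7 reached the level, and 1, 6 and 7 of them were at least 2-fold higher in S-phase cells at 6, 15 and 24 h. In cells of neither gate 6 of the 7 were at 24 h, where 2.94% of all genes were. Clu was at 24.1, 107, 660 and 1530 CPM, which was 63.5-fold higher at 24 h than at 0 h. Clu and Anxa3 (annexin A3) reached the mean of 50 CPM only through their levels after 0 h, so the counts for this list are a description. Without the top cell of each time, Anxa3 was at 9.10, 10.3, 59.4 and 107 CPM. S100a6, a calcium-binding protein, was at 145, 214, 791 and 1827 CPM, and Cd44, a hyaluronan receptor, at 90.8, 140, 192 and 233. Anxa1 (annexin A1) was at 7.32, 2.38, 9.25 and 72.5 CPM, highest at 24 h. At 0 h 88.2% of its UMIs came from 1 cell, and without the top cell of each time it was at 0.866, 1.03, 5.33 and 60.8 CPM. Ly6a (Sca-1), a marker of the fetal-like epithelium, was at 0.340 to 4.30 CPM. In cells of neither gate Clu was at 12.0, 56.2, 304 and 703 CPM, and S100a6 at 188, 338, 997 and 1771. Clu was thus about as much higher at 24 h in one kind of cell as in the other, with log2 ratios of 5.72 and 5.38.

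Of 10 targets of the YAP coactivator 2 reached the level, and 1 of them, Ccn1, was 2-fold higher at 24 h. The other, Tead1, reached the mean of 50 CPM only through its levels after 0 h, so this count is a description. Ccn1, a secreted matrix protein, was at 285, 360, 767 and 1170 CPM in S-phase cells and at 111, 148, 294 and 388 in cells of neither gate. Among the largest differences outside the lists, Thbs1 (thrombospondin 1) was at 37.4, 62.3, 221 and 507 CPM. Cym, the gene of the protease chymosin, had 0 UMIs in S-phase cells at 0 h and was at 268 CPM at 24 h. Against a floor of 3 UMIs over the 0 h S-phase cells, that was at least 208-fold higher, and 1 cell held 19.2% of the 24 h UMIs. Sprr2a1 was at 35.3 CPM at 0 h and 2002 CPM at 24 h, and its near-identical neighbour Sprr2a2 at 35.3 and 1935 CPM. They share reads, so their separate levels are uncertain. Thbs1, Cym, Sprr2a1 and Sprr2a2 also reached the mean of 50 CPM only through their levels after 0 h, so their ratios are a description.

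**Figure D4:**
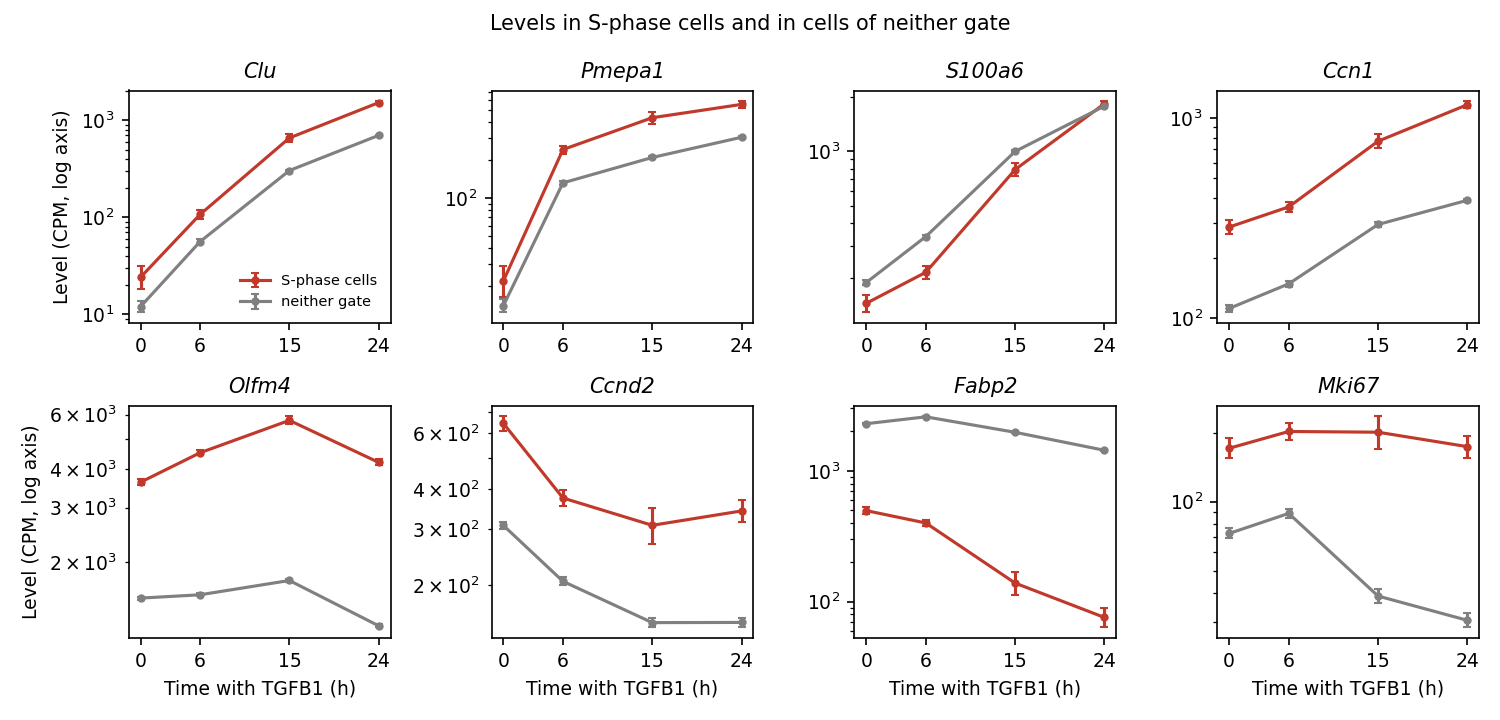
Levels of 8 genes in CPM (log axis; each panel has its own range) by hours with TGFB1 in S-phase cells (red) and in cells of neither gate (grey), from summed UMIs with exact 95% Poisson intervals. Clu and Pmepa1 are higher at each later time in both, whereas Mki67 is near level in S-phase cells and lower at 15 and 24 h in cells of neither gate.

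Counted per cell, most S-phase cells at 24 h had Clu UMIs. With every cell thinned to 2000 UMIs, 4.48, 17.3, 53.4 and 81.2% of S-phase cells had a Clu UMI at 0, 6, 15 and 24 h (unthinned 9.38, 36.3, 87.7 and 96.0%). Mitotic cells, the other cycling cells, had thinned shares of 3.74, 12.0, 41.5 and 67.3%, and cells of neither gate 1.39, 6.42, 22.7 and 37.0%. The Clu share was thus high in both kinds of cycling cell. In cells rich in enteroendocrine RNA, taken as a background, Clu was found in 0 of 6, 2 of 8, 2 of 11 and 8 of 23 cells; the last is 34.8% (interval 16.4 to 57.3%). The S-phase share at 24 h (72.2 to 88.3%) lay above that background, and that of cells in neither gate did not stand apart from it. How much of the Clu RNA in enteroendocrine-rich cells was their own was not tested. The median Clu level per S-phase cell was 0 per 10000 UMIs at 0 and 6 h, 4.03 at 15 h and 11.0 at 24 h, so the 24 h level was spread over most of the cells.

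The same relation can be read from the side of Clu. Of cells with a Clu UMI after thinning to 2000 UMIs, 18.2, 17.3, 5.34 and 9.12% were in the S-phase gate at 0, 6, 15 and 24 h. Of cells without one, 7.41, 7.30, 1.57 and 1.44% were. At 24 h the S-phase share was 9.12% (7.32 to 11.2%) with Clu against 1.44% (0.869 to 2.24%) without, while the median depth was 11891 against 9351 UMIs. With gate and cells thinned to 5000 UMIs these shares were 10.0 and 2.10%. S-phase cells were therefore a larger part of the cells with Clu UMIs than of those without at each of the 4 times. This was not particular to Clu. For Olfm4 the shares with and without a UMI were 12.6 and 3.57% at 0 h and 8.80 and 1.48% at 24 h. For Fabp1 the order was the reverse, with 2.25 and 11.2% at 24 h.

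Stem-cell genes were higher in S-phase cells than in cells of neither gate at each time. Olfm4, a crypt stem-cell and progenitor marker, was at 3627, 4515, 5744 and 4202 CPM in S-phase cells and at 1532, 1571, 1747 and 1247 in cells of neither gate. Lgr5, the receptor that defines crypt base stem cells, was at 62.8, 43.9, 60.8 and 84.4 CPM. Rnf43, a Wnt feedback gene, was at 72.7, 104, 135 and 188 CPM and Sox9, a crypt transcription factor, at 142, 180, 251 and 240. Of 11 stem genes 9 reached the level, and 1 of them (Rnf43) was 2-fold higher at 24 h and 0 were lower. Thinned to 2000 UMIs, 74.0, 83.3, 89.0 and 81.2% of S-phase cells had an Olfm4 UMI (unthinned 90.2, 93.9, 98.6 and 94.1%). Mitotic cells had thinned shares of 72.3, 75.1, 81.1 and 73.6%, so a high Olfm4 share was not particular to S-phase cells. The enteroendocrine-rich cells gave 3 of 6, 6 of 8, 5 of 11 and 12 of 23, so Olfm4 RNA was common in them too. Whether that was free RNA or their own was not tested.

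In S-phase cells, the share with both Clu and Olfm4 UMIs was near the product of the separate shares, which could hardly be otherwise before 24 h. Thinned to 2000 UMIs, both were found in 4.04, 16.4, 47.9 and 66.3% of S-phase cells at 0, 6, 15 and 24 h. The product of the separate shares was 3.32, 14.4, 47.6 and 65.9%, inside the interval of the share seen at each time. The share with both cannot exceed the Clu share, which was 4.48, 17.3 and 53.4% at 0, 6 and 15 h. That limit lay inside the same intervals (1.86 to 7.52, 12.7 to 20.8 and 36.1 to 60.0%). At those times the comparison therefore cannot tell whether the 2 genes go together. Olfm4 without Clu was found in 70.0, 66.9, 41.1 and 14.9%, and Clu without Olfm4 in 0.448, 0.865, 5.48 and 14.9%. In cells of neither gate the shares with both were 0.673, 4.85, 15.5 and 21.0%, against products of 0.526, 2.67, 9.55 and 14.1%. A part of these pairs can be free Olfm4 RNA, and that part was not tested.

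Enterocyte RNA was scarce in S-phase cells and scarcer at the later times. The list of 16 genes summed to 3234, 3370, 1660 and 1535 CPM in S-phase cells, against 32107, 35242, 31759 and 26500 CPM in cells of neither gate. Fabp1, the liver-type fatty acid binding protein, was at 833, 862, 235 and 219 CPM, and Fabp2, the intestinal type, at 496, 399, 139 and 75.8. Of 11 genes at the level, 5 were at least 2-fold lower at 15 h and 4 at 24 h, while Apoa1, an apolipoprotein, was at 70.2, 182, 165 and 128 CPM. A Fabp1 UMI was found after thinning to 2000 UMIs in 47.1, 52.4, 39.7 and 36.6% of S-phase cells. Enteroendocrine-rich cells gave 4 of 6, 4 of 8, 9 of 11 and 17 of 23, so Fabp1 in S-phase cells did not stand above background and is not read as expression. In cells of neither gate Fabp1 was at 10545, 11859, 10301 and 6695 CPM, and the part of free RNA in the S-phase difference was not tested.

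Immune, mesenchymal and tuft RNA was nearly absent from the gate, whereas secretory RNA was not. The immune list summed to at most 1.36 CPM and the mesenchymal and endothelial list to at most 2.72 CPM in S-phase cells, and the tuft list to at most 2.71 CPM. The enteroendocrine list summed to 8.18, 8.51, 29.1 and 15.2 CPM, against 18.0, 18.2, 36.2 and 96.2 in cells of neither gate. Cd3e, Tyrobp, Col3a1 and Pdgfra had 0 UMIs there at all 4 times. The Paneth list summed to 538, 561, 795 and 1382 CPM in S-phase cells against 514, 525, 688 and 1003. The intervals overlapped at 0 h (509 to 569 against 504 to 523 CPM) and at 6 h, and lay apart at 15 and 24 h. A list sum without the top cells was not taken. The goblet list summed to 487, 234, 630 and 252 CPM against 338, 384, 221 and 335, in no steady order. Of 7 Paneth genes 4 reached the level and 2 were 2-fold higher at 24 h. Of 7 goblet genes 3 reached it, and Tff3 and Agr2 were 2-fold lower at 24 h, but the log2 ratio of Tff3 turned from -1.07 to 0.71 when cells were chosen and summed after thinning to 2000 UMIs. Much of this RNA lay in single cells, whose part in the S-phase levels was not tested beyond the values without the top cell. Of the Tff3 UMIs in S-phase cells at 24 h, 49.6% came from 1 cell (61.7% at 15 h), and of the Defa24 UMIs 36.2%. Without that cell Defa24, a Paneth defensin, was at 401 CPM in place of 625 at 24 h, against 224 CPM at 0 h. Tff3, a goblet peptide, was at 75.8 CPM in place of 149.

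Nupr1 and the metallothioneins had the lowest ratios at 6 h, -1.99 for Nupr1, -1.70 for Mt1 and -1.69 for Mt2 on the log2 scale. Mt1, a metal-binding protein, was at 5577, 1708, 1248 and 1982 CPM in S-phase cells at 0, 6, 15 and 24 h, and Mt2 at 4012, 1243, 1014 and 1261. They were lower in cells of neither gate too, with Mt1 at 15248, 7002, 6599 and 9049 CPM. Nupr1, a stress-induced gene, was at 34.0, 4.77, 74.0 and 134 CPM, lowest at 6 h. Otc, the urea-cycle enzyme ornithine transcarbamylase, was at 114, 87.2, 43.6 and 10.3 CPM, 11.1-fold lower at 24 h than at 0 h. Trim24, a chromatin reader, was at 65.4, 27.2, 55.5 and 60.6 CPM, lower at 6 h alone.

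Bulk RNA-seq tested the S-phase genes in replicate libraries that played no part in choosing cells. The organoids, dose and day differ from the single-cell libraries, so the values are set side by side only. In bulk RNA, fewer S-phase cells and less RNA per S-phase cell cannot be told apart. By limma on log2(FPKM + 1), with Benjamini-Hochberg adjustment over 11258 genes and a threshold of 0.05, 39.7% of all genes fell and 35.8% rose with TGFB1. The 47 S-phase genes, 5 of the gate and 42 replication genes, all fell. The highest limma adjusted p among them was 7.77e-05. Their median log2 difference was -1.43, against -0.03 over all genes.

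Mcm3 was at 70.6, 70.5 and 69.0 FPKM in the vehicle libraries and at 27.9, 27.5 and 24.0 FPKM with TGFB1. Its log2 difference was -1.37 ± 0.06 (SE, n = 3 per group, limma adjusted p = 5.55e-09). Rrm2 was at 40.4, 38.9 and 41.3 FPKM with vehicle and at 8.79, 8.96 and 6.30 with TGFB1, a log2 difference of -2.21 ± 0.11. Ccne2 was at 5.74, 6.17 and 6.67 FPKM with vehicle and at 1.34, 1.91 and 1.02 with TGFB1. Each of the 3 genes was lower in every TGFB1 library than in any vehicle library. Such separation was not counted over all genes, of which 39.7% fell and 35.8% rose, so it is a description only. The 47 differences ranged from -2.29 for Tk1 to -0.47 for Pcna, which was at 62.0, 57.7 and 64.8 FPKM and then at 46.2, 44.2 and 42.03 FPKM.

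Cdc6 fell in bulk too, from 6.39 ± 0.59 FPKM (SD, n = 3) to 2.92 ± 0.13 FPKM, although inside the S-phase gate it was the replication gene with the highest 24 h ratio. Ccnd2 fell from 90.3 ± 1.6 to 28.3 ± 1.5 FPKM and was lower inside the gate as well. Clu was at 185.7, 179.4 and 208.5 FPKM with vehicle and at 3839, 3912 and 4154 FPKM with TGFB1, so it rose while all 47 S-phase genes fell. Whether the replicates came from separate cultures is not stated in the labels, so these p-values measure the spread between these libraries, which may be technical.

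**Figure D5:**
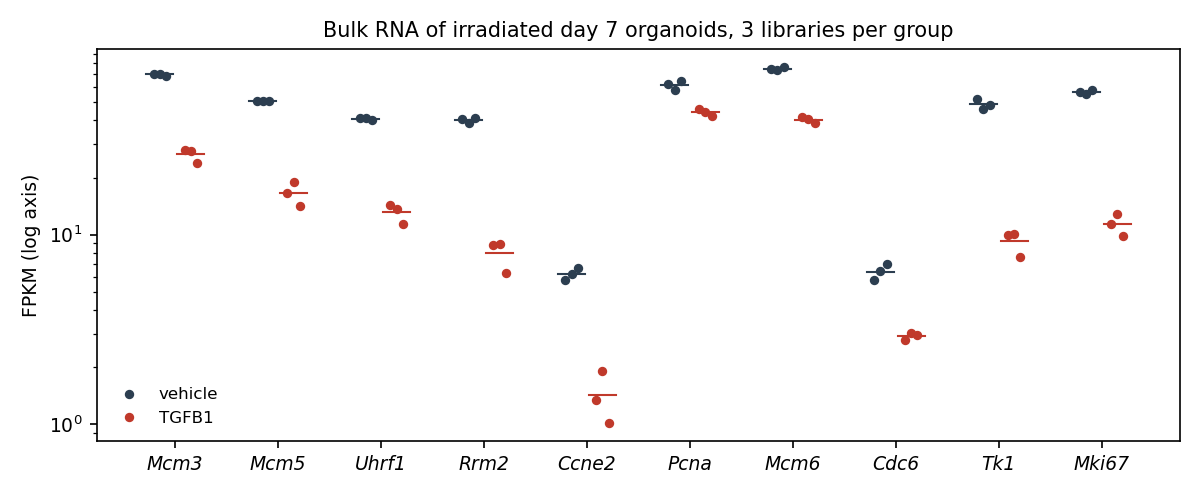
FPKM (log axis) of the 5 gate genes, 4 further replication genes and Mki67 in bulk RNA of irradiated day 7 organoids, with 3 vehicle libraries (dark) and 3 TGFB1 libraries (red) as points and the group means as bars. Every TGFB1 library lies below every vehicle library for each of these genes, from Pcna (-0.47 on the log2 scale) to Tk1 (-2.29). Such separation was not counted over all genes.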

How the data were processed

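The deposited single-cell tables list expected counts (UMIs per gene in each cell), and some are not whole. Fractional entries (more than 0.001 from a whole number) held 7.72 to 11.7% of the UMIs of the 4 organoid libraries. The FPKM table of the irradiated day 7 organoids was deposited by the authors, and its read depth is unknown. Per the submitters' processing notes, TopHat2 2.1.0, Cuffnorm 2.2.1, STARsolo and STAR 2.7.10a were used, with mm9, GRCm39 and mm39 as builds; the sources used here do not say which step each served.

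Kept cells gave 26302424 to 32430950 UMIs per organoid library. Expected counts were summed per gate and time without rounding for CPM, and rounded for intervals and thinning. Doublets were called with Scrublet (scanpy 1.11.5) and kept, and it called 0.491 to 1.65% of barcodes per library. Bulk values were fitted with limma 3.58.1 (R 4.3.3, trend and robust) on genes averaging 1 FPKM or more, TGFB1 against vehicle, with no block. Both steps were tested on simulated data. The cells, the gene lists and the tests were chosen with earlier results of these data known. Named genes are the gate genes, the 4 of each list with the largest 24 h ratio in either direction among those of at least 50 CPM, fixed genes (Clu, Anxa1, Smad7, Cdkn1a, Myc, Mki67, Pcna, Lgr5, Olfm4 and Fabp1), the 8 largest ratios each way at 24 h and 5 at 6 h, and the 5 that differ most each way from cells of neither gate; Gmnn, Cdt1, Rrm1, Dnmt1, Brca1, Chek1, Ccne1, Cdkn2b, Cdkn2c, Cd44, Ly6a, Apoa1 and the 4 markers at 0 were added from the lists after their values were seen. Day 11 and non-irradiated bulk libraries and chromatin peaks were not used here, and some named genes are not reported here.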

Additional observations from a re-analysis of the deposited data

How the results depend on the processing

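The S-phase shares at 0, 6, 15 and 24 h were 11.9, 11.6, 4.12 and 6.40% with an S gene sum of at least 6, and 2.83, 2.85, 0.796 and 1.4% with at least 12. Thinned to 2000 UMIs they were 9.21% at 0 h and 3.25% at 15 h; thinned to 5000 UMIs, chosen after seeing the data, 9.58, 9.64 and 3.65% at the first 3 times. In each of these settings, and with no mitotic limit, without called doublets or with at most 10% mitochondrial UMIs, 15 h was the lowest. With a mean of at least 20 CPM, 62, 188 and 254 genes were 2-fold higher at 6, 15 and 24 h and 17, 91 and 113 lower, and with no level limit 106, 355 and 500 higher and 38, 251 and 217 lower. Genes lower at 6 h numbered 11 without called doublets and 13 thinned to 2000 UMIs. Genes lower at 15 h numbered 93 with an S gene sum of at least 12, 91 (and 153 higher) thinned to 2000 UMIs and 64 thinned to 5000; at 24 h 106 were lower thinned to 2000. The replication median moved across 0: thinned to 2000 UMIs it was 0.0087, -0.082 and -0.026 at 6, 15 and 24 h, thinned to 5000 it was -0.13 at 15 h and 0.10 at 24 h, and with median-ratio scaling -0.020 at 24 h. Of 89 named ratios past 2-fold, 87 kept their direction under all 7 other settings chosen at the outset and 69 stayed past 2-fold. Tff3 (0.71) and Iho1 (0.67) at 24 h reversed when thinned to 2000 UMIs; the cause was not tested. In bulk, limma called all 47 S-phase genes lower with 0.1 FPKM added, with no filter, with median-ratio scaling, under the replicate block (47) and in each fit that left out a replicate (47). Same-numbered libraries deviated together only weakly (r 0.07, 0.21 and 0.02), so the numbers were not taken to pair them. In single cells, 1 library per time and 73 cells at 15 h limit every statement.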
